A study of Mus musculus with 123 samples.

Results

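The 29 mouse cells captured at E12.5, counted in days of embryonic development, were sorted αMHC-GFP+ cells from the heart, and the summed level of 10 cell cycle genes in them ranged from 0 to 9500 CPM (counts of a gene per 1000000 counts of the cell). The αMHC-GFP strain carries green fluorescent protein under the promoter of the alpha myosin heavy chain gene, so that the cells sorted by it are cardiomyocytes (CMs) and any other cell in which that promoter is active. The 10 E12.5 cells with the highest level of these genes (high-cycling cells) were compared with the 10 with the lowest (low-cycling cells), and the 9 cells between them are shown beside both. All 29 were of the same strain, tissue and age and none was treated, and they are part of a series of 123 cells that also holds 42 from E9.5 and 52 from postnatal day 1 (P1). Each cell was 1 library made on the Fluidigm C1 microfluidic platform with a full-length cDNA kit.

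A cell that divides runs through a fixed order of transcription. Genes of DNA replication are switched on by E2F factors as the cell enters S phase, and genes of mitosis follow in G2 and M phase, when the MuvB core, bound at a promoter element called CHR, is no longer held in the repressive DREAM complex and recruits B-Myb and then FoxM1. In the embryonic heart CMs divide while they beat, and a dividing CM takes its sarcomeres apart, Z-discs and thin filaments first, before the chromosomes separate. CMs leave the cell cycle soon after birth, at about the time they turn from glucose to fatty acids as their main fuel.

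The cells were chosen by a measured value. The score was the summed CPM of Mki67, Top2a, Cenpf, Nusap1, Tpx2, Kif11, Ccnb1, Ccna2, Cdk1 and Birc5, which encode a chromosome surface protein, a topoisomerase, a kinetochore protein, spindle proteins and a spindle motor, the B1 and A2 cyclins, their kinase and survivin. Scores of the high-cycling cells ran from 1878 to 9500 CPM with a median of 3760, those of the low-cycling cells from 0 to 86.8 with a median of 4.19, and those of the cells between from 101 to 1561 with a median of 425. The last high-cycling cell stood at 1878 and the next cell in rank at 1561, so the upper limit fell in a smooth slope and not in a gap. The same held at the lower limit, where the last cell left out stood at 101 and the first low-cycling cell at 86.8. In 4 low-cycling cells none of the 10 genes had a count.

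**Figure D1:**
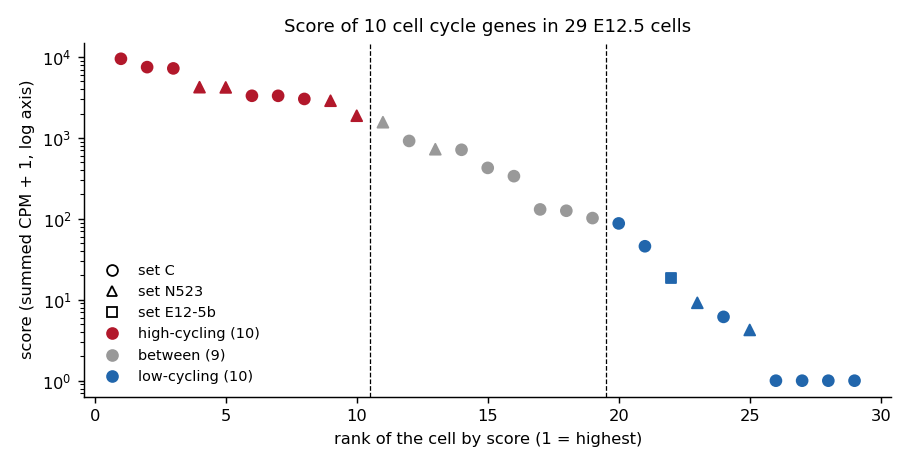
Score of each of the 29 E12.5 cells (summed CPM of 10 genes plus 1, log axis) against its rank, with the limits of the 10 high-cycling and 10 low-cycling cells as dashed lines and the naming set of the title as the symbol. The scores fall in a slope from 9500 to 0 CPM with no gap at either limit, and the 4 cells at 0 all belong to set C.

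All 10 score genes followed the choice, as they had to. Top2a averaged 1023 CPM in the high-cycling and 0.767 CPM in the low-cycling cells, Birc5 872 and 7.67, Cenpf 514 and 0.275, and Mki67 361 and 0. Between 5 and 10 of the 10 genes had a count in each high-cycling cell and between 0 and 4 in each low-cycling cell, counts that the ranking by these genes largely fixed. At E9.5 the same score ran from 0 to 10874 CPM with a median of 1224 and 2 of 42 cells at 0. At P1 its highest value was 1590 CPM and 44 of 52 cells were at 0. The high-cycling E12.5 cells therefore all lay above every P1 cell.

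The labels name no animal, litter or chip, so the E12.5 cells count as 1 sample, and cells are not replicates of a condition. No test was run between the groups and no p-value is given. What follows describes these 20 cells. Titles of the cells begin with C, N523 or E12-5b, and these naming sets may stand for separate runs. The high-cycling cells were 6 of set C and 4 of N523, the low-cycling cells 7 of set C, 2 of N523 and the single E12-5b cell, so the list levels are also given for set C alone (6 against 7 cells). N523 cells held from 2953992 to 7711355 counts and set C cells from 148258 to 738496. Total counts were alike between the groups, with a median of 472974.5 in the high-cycling (357861 to 7711355) and 529223 in the low-cycling cells (162654 to 5872289). Spearman's correlation of the score was 0.048 with total counts over the 29 cells, which share their kit, and -0.10 over the 20 of set C. With the number of genes found it was 0.18 and 0.45. Titles ending in "no", whose meaning is not given, were 1 in the high-cycling and 5 in the low-cycling group. All of them were in set C, so they were 1 of its 6 high-cycling and 5 of its 7 low-cycling cells. Without these titles (9 against 5 cells) the log2 ratios of mean levels given below were 3.95 in place of 4.11 for mitosis genes, 0.91 in place of 1.13 for replication genes, -0.50 in place of -0.46 for sarcomere genes and -0.24 in place of -0.63 for cycle inhibitors.

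Both groups were CMs by their markers. Myh6, Myh7, Tnnt2, Tnni1, Actn2, Actc1, Nkx2-5, Ttn, Mybpc3 and Tnnc1 summed to between 18437 and 47993 CPM in the high-cycling and between 27118 and 65305 CPM in the low-cycling cells. Endothelial markers reached at most 40.7 CPM in any of the 20 cells, and Pecam1, Cdh5, Kdr, Tek, Tie1, Emcn, Egfl7 and Cldn5 had no count. Myh11, which defines smooth muscle, also had none, but the smooth muscle list, led by Tagln and Cnn1, reached 2448 CPM in the high-cycling and 3081 CPM in the low-cycling cells, with a log2 ratio of -1.46 (-2.70 in set C, 0.057 in pooled CPM). Epicardial markers reached 475 CPM in a high-cycling and 415 CPM in a low-cycling cell, with Upk3b, Aldh1a2 and Msln at 0 in both groups. Erythroid markers reached at most 0.215 CPM. Mesenchymal markers ranged from 0 to 2295 CPM in the high-cycling and from 0 to 1864 in the low-cycling cells, with Lum and Tcf21 at 0 in the former and Col1a1, Col3a1, Postn, Dcn, Tcf21 and Sox9 at 0 in the latter. Macrophage markers reached at most 229 CPM, with Ptprc, C1qa, Cd68 and Fcer1g at 0. The part of the mesenchymal, epicardial and smooth muscle transcripts in the differences was not tested. No 2 E12.5 columns were identical.

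The elements named above can be read in the promoters of the genes. The 4 promoters below are shown because they belong to the score, mitosis, replication and sarcomere gene with the most counts among those considered. All considered genes had a RefSeq entry. For the score, mitosis and replication lists the promoter also had to hold a match to a motif, so a match there was fixed by the choice. No match was asked of the sarcomere gene. They run from 250 bases before to 50 after the start of the gene in build GRCm38.p6, 5′ to 3′ on the strand of the gene, and capitals mark the motifs, which were searched on both strands. The CHR motif was spelled TTTGAA, or in the variant form also searched here TTCGAA. The CCAAT box reads ATTGG on the opposite strand. The E2F motif was spelled TTCCCGC in the first form searched, in the next form it was TTGGCGC, which can share bases with a reversed CCAAT box, and in the last form it was TTCGCGC. Cdk1 lies at chr10:69352863-69353162 on the minus strand, Ccnb2 at chr9:70421505-70421804 on the minus strand, Rrm1 at chr7:102441445-102441744 on the plus strand and Actc1 at chr2:114052826-114053125 on the minus strand.
Cdk1: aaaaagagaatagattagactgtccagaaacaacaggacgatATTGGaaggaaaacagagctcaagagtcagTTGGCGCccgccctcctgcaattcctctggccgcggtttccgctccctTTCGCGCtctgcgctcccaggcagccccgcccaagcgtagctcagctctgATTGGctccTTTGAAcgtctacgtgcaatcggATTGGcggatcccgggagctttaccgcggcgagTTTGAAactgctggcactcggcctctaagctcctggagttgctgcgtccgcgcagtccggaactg
Ccnb2: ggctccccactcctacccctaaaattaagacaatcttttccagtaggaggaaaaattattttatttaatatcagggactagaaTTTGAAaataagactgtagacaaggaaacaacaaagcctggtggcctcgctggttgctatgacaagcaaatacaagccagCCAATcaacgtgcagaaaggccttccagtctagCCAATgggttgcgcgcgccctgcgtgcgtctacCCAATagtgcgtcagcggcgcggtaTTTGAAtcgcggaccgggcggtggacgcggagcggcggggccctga
Rrm1: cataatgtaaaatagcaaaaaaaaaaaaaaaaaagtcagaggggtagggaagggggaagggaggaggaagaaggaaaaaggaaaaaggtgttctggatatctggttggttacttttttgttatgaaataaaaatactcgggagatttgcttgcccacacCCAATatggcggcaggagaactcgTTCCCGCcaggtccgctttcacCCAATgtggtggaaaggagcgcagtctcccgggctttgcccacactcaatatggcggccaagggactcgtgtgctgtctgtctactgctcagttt
Actc1: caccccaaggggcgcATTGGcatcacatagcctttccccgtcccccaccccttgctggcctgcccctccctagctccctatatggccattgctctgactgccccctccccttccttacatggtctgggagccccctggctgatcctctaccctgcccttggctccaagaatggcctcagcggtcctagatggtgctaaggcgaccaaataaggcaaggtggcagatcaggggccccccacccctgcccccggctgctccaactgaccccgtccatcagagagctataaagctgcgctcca
Cdk1, the mitotic kinase, held 2 CHR, 3 CCAAT and 2 E2F matches. Ccnb2, the B2 cyclin that activates this kinase, held 2 CHR and 3 CCAAT matches and no E2F match. Rrm1, the large subunit of the enzyme that makes deoxynucleotides, held 2 CCAAT and 1 E2F match and no CHR match, and Actc1, cardiac actin, held 1 CCAAT match only.

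Across the lists, promoters of mitosis genes carried CHR in 46 of 60 cases (76.7%) and CHR together with CCAAT in 36 (60%), beside 19.2% and 7.52% of all 32851 promoters in the table. E2F was found in 32 of 54 promoters of replication genes (59.3%), 11 of 60 of mitosis genes (18.3%), 0 of 54 of sarcomere genes and 8.07% of all promoters. CHR was found in 16.7% of the promoters of replication genes and 14.8% of those of sarcomere genes. A table entry was found for 55 of 70 mitosis genes, 46 of 61 replication genes and 40 of 51 sarcomere genes. These are matches of letters and not binding sites.

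Among 6027 genes outside the score with a mean of 10 CPM or more and a count in 5 or more of the 20 cells, 1506 (25%) were 2-fold or more higher in the high-cycling cells and 1443 (23.9%) 2-fold or more higher in the low-cycling cells. Ratios here are log2 ratios, high-cycling to low-cycling, of the mean over cells of each cell's CPM with 1 CPM added, so a positive value means higher in the high-cycling cells. A list of genes has to be read against these shares, which with TMM factors (edgeR's trimmed-mean scaling) were 29.3% and 19.9%. In set C alone the shares were 28.2% and 26.2%, and 1178 of the 1506 and 1065 of the 1443 genes also passed 2-fold there. Single cells weighed on many of these ratios. When each gene was read without the 1 cell in which it was highest, a reading chosen after seeing the data, 773 of the 1506 (51.3%) and 715 of the 1443 genes (49.5%) were still 2-fold apart in the same direction. As a measure that does not depend on the highest cells, the 100 pairs of 1 high-cycling and 1 low-cycling cell were counted, and the share of pairs in which the high-cycling cell was higher is called the pair share (50% where neither group is higher). Every high-cycling cell was above every low-cycling cell for 2 genes (0.0332%), Ccnb2 and Asf1b, and the reverse held for none (0%). The lowest high-cycling level was 88.4 CPM for Ccnb2 but 0.195 CPM for Asf1b, whose median there was 10.6 CPM. Thinned to 100000 counts a cell, Ccnb2 was found in 10 high-cycling cells and Asf1b in 6. The separation of Asf1b therefore depended on depth, and its groups overlapped at 0 after thinning.

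The summed level of mitosis genes outside the score was higher in every high-cycling cell than in any low-cycling cell, which of the single genes of this list only Ccnb2 was. It ran from 4436 to 20354 CPM with a median of 11249 in the high-cycling cells, from 178 to 1748 with a median of 385 in the low-cycling cells, and from 250 to 6535 with a median of 1501 in the cells between. Of 70 genes 60 passed the filter on low values, 59 of these were 2-fold or more higher in the high-cycling cells and none was 2-fold lower. Without the highest cell of each gene 57 of the 59 remained past 2-fold. The median log2 ratio of the 60 was 5.91, beside 0.012 over all 6027 genes, and that of the summed level was 4.11 (4.30 in set C). These genes belong to the same phase as the score and share its cells, so their direction is not independent of the choice.

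Ccnb2 ran from 88.4 to 1522 CPM with a median of 483 in the high-cycling cells, and in the low-cycling cells it had a count in a single cell, at 1.19 CPM. Prc1, which bundles the microtubules of the central spindle, averaged 659 CPM against 0.825. Cenpe, a kinetochore motor, and Hmmr, a spindle assembly protein, averaged 316 and 207 CPM in the high-cycling cells and had no count in the low-cycling cells, which puts their pooled levels at least 764-fold and 932-fold higher when 3 counts over the group are taken as the limit of a count of 0. Thinned to 100000 counts a cell, Cenpe was still found in 7 and Hmmr in 8 of the 10 high-cycling cells and in none of the low-cycling cells. Before thinning each was found in 8 of the 10, so the groups overlapped at 0. Without the highest cell the high-cycling means were 206 CPM for Cenpe and 127 CPM for Hmmr. The pooled limit of Hmmr leaned on 1 deep cell more than its mean did. Cell 23, at 926 CPM among 4126317 counts, gave most of the 4435 counts of Hmmr in the group.

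Other mitosis genes act at the spindle checkpoint and at the exit from mitosis. Bub1, a spindle checkpoint kinase, averaged 159 CPM against 0, but its median in the high-cycling cells was 4.59 CPM and cell 6 alone stood at 1314 CPM, without which the mean was 30.8 CPM. Plk1, the polo-like kinase of mitotic entry, averaged 145 CPM with a count in 7 high-cycling cells and 0.172 with a count in 1 low-cycling cell. Ube2c, which marks cyclins for destruction at the end of mitosis, was found in all 10 high-cycling cells (114 to 1641 CPM) and in 6 low-cycling cells (0 to 219 CPM). Of the cytokinesis genes, Kif23 averaged 372 CPM against 2.95, Ect2 156 against 3.63 and Anln, the contractile ring scaffold, 121 against 0.017 (66.8 without cell 1). The exception of the list was Ckap5, a microtubule polymerase used outside mitosis too, at 173 against 140 CPM.

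The 15 genes with the largest ratios higher in the high-cycling cells, by a rule that also asked for a count in 6 cells, a higher median and the same direction in set C and in pooled CPM, were Ccnb2, Prc1, Cenpe, C330027C09Rik, D2Ertd750e, Poc1a, Hmmr, Cenpi, Spag5, Pbk, Bub1, Spast, Tarbp2, Acp6 and Dsn1. Besides the listed mitosis genes they included Cenpi and Dsn1, which are kinetochore components, Spag5, a spindle protein, Poc1a, a centriole protein, and Spast, which severs microtubules. Cenpi averaged 185 CPM in the high-cycling cells with no count in the low-cycling cells, and Spag5 181 CPM likewise (118 without cell 23). Acp6, an acid phosphatase, had a count in 6 high-cycling cells with a median of 1.76 CPM, and without the highest of them, at 2264 CPM, its mean was 50.4 against 0.936 CPM. A looser view by pairs gave 29 of the 6027 genes (0.481%) with a pair share of 90% or more. Of these 23 were among the 145 tested genes of the cell cycle lists, and the cells compared were chosen by a cycle score. The others were Asf1b, a histone chaperone, Gas2l3 (log2 ratio 4.83), which links actin and microtubules in cytokinesis, Arl6ip1 (633 against 124 CPM), the host of small nucleolar RNAs Snhg1 (109 against 3.96 CPM), 1190002F15Rik and C330027C09Rik. These 6 were singled out after their values were seen. For Asf1b the groups overlapped at 0 after thinning, as given above.

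**Figure D2:**
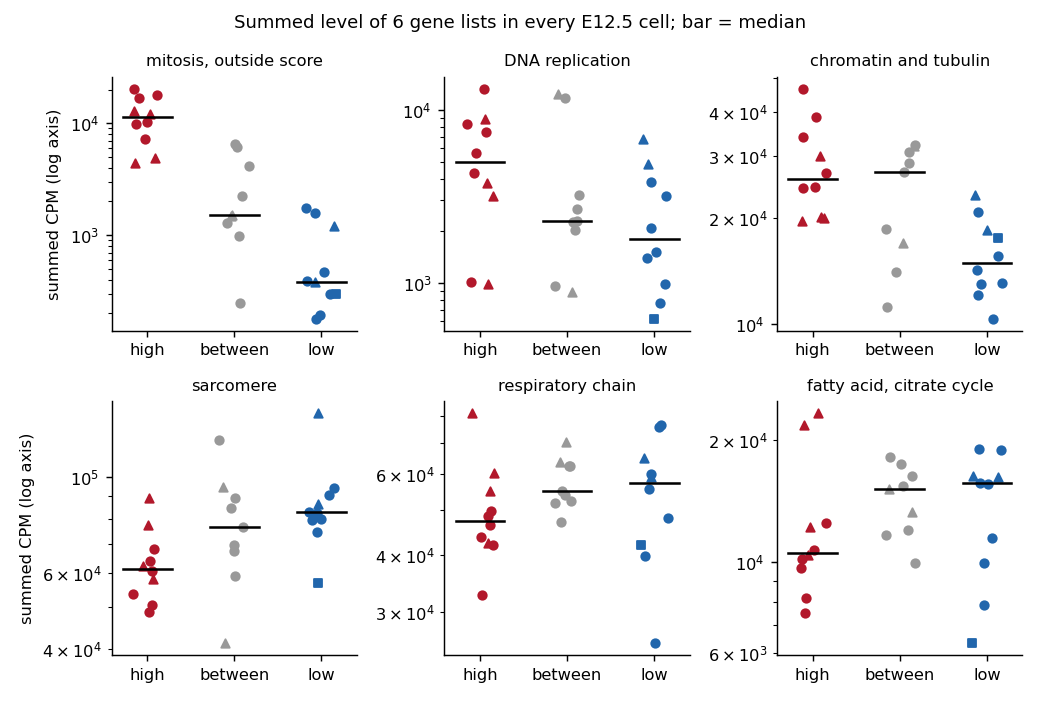
Summed CPM (log axes) of 6 gene lists in each E12.5 cell, with high-cycling cells in red, the 9 cells between in grey and low-cycling cells in blue, symbols for the naming set (circle C, triangle N523, square E12-5b) and bars for the medians. Mitosis levels of the high-cycling (4436 to 20354 CPM) and low-cycling cells (178 to 1748 CPM) do not overlap, while the levels of the other lists do.

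Replication genes were higher in the high-cycling group but did not follow the score closely. The summed level ran from 985 to 13315 CPM with a median of 5018 in the high-cycling cells and from 618 to 6824 with a median of 1793 in the low-cycling cells. The log2 ratio was 1.13, the pair share 77%, and in set C alone 1.77 and 88.1%. Of 61 genes 40 passed the filter, 21 were 2-fold or more higher in the high-cycling cells and 3 (Mcm3, Mcm4 and Rpa2) 2-fold or more higher in the low-cycling cells. Without the highest cell of each gene 14 of the 21 and none of the 3 remained past 2-fold, and cell 25 was the highest for all 3. In pooled CPM, where the deep N523 cells weigh most, the ratio was -0.064 and the direction was lost.

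Replication levels of the groups overlapped widely, and 7 low-cycling cells were above the lowest high-cycling cell. The median of the high-cycling cells was reached by 5 of these, by 2 of the 9 cells between and by 1 low-cycling cell. The 2 cells between were cell 24 of set N523, at 12376 CPM with a score of 1561 CPM, the next in rank below the high-cycling cells, and cell 10 of set C, at 11812 CPM with a score of 336 CPM. The low-cycling cell was cell 25 of set N523, at 6824 CPM, with a score of 8.16 CPM. In the other direction, cells 3 and 22 had scores of 3315 and 2877 CPM and replication levels of 1010 and 985 CPM. Spearman's correlation between the replication level and the score was 0.44 over the 29 cells and 0.55 over set C, against 0.91 and 0.92 for the mitosis list. The replication level thus varied widely at a given score.

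Rrm2, the small subunit of ribonucleotide reductase, averaged 1114 CPM in the high-cycling and 113 CPM in the low-cycling cells, with a count in 9 and 6 cells. Rrm1, whose promoter is printed above, averaged 576 against 231 CPM, with medians of 427 and 6.74. Tyms, which makes thymidylate, averaged 77.4 against 5.76 CPM, Rfc4, a subunit of the clamp loader, 211 against 15.5, and Atad2, a chromatin protein of S phase, 120 against 3.59. Pcna, the sliding clamp, averaged 218 against 108 CPM with a pair share of 59%. Without their highest cell the log2 ratios of Rrm1 and Pcna were 0.79 and 0.40, under 2-fold. The helicase subunits did not share a direction. Mcm2 averaged 73.3 against 11.4 CPM and Mcm7 54.9 against 15.7, whereas Mcm3 averaged 74.0 against 219 and Mcm4 71.7 against 158. For Mcm3 the set C cells gave the opposite sign, a log2 ratio of 1.99, and without cell 25 Mcm3 and Mcm4 had log2 ratios of -0.47 and -0.32.

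**Figure D3:**
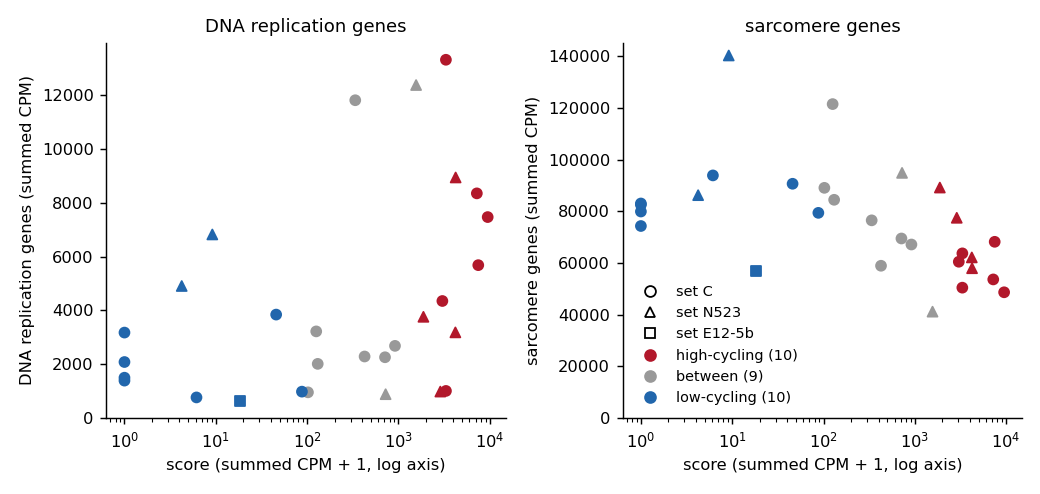
Summed CPM of the DNA replication genes (left) and of the sarcomere genes (right) against the score (summed CPM plus 1, log axis) in each of the 29 E12.5 cells, coloured by group with symbols for the naming set. On the left, cells with middle or low scores reach 12376, 11812 and 6824 CPM. On the right, levels are lower at higher scores, with a Spearman correlation of -0.59.

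Chromatin and tubulin genes, which every cell uses but a dividing cell uses more, were also higher. Their summed level ran from 19593 to 46726 CPM (median 25765) in the high-cycling and from 10314 to 23191 CPM (median 14881) in the low-cycling cells, with a log2 ratio of 0.85 and a pair share of 94%. In set C the groups did not overlap, with 24301 to 46726 CPM against 10314 to 20782 CPM. Of 33 genes that passed the filter 21 were 2-fold or more higher in the high-cycling cells and none 2-fold lower, and 15 of the 21 remained past 2-fold without the highest cell of each gene. The cells between had a median of 27052 CPM, as high as that of the high-cycling cells. Spearman's correlation of the list with the score was 0.76 over the 29 cells and 0.84 over set C.

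H2afz, a histone variant made throughout the cycle, ran from 676 to 2485 CPM in the high-cycling and from 183 to 695 in the low-cycling cells, with a pair share of 99%. Hmgb2, a chromatin protein of proliferating cells, averaged 394 against 25.7 CPM. Cks1b, a subunit of cyclin-dependent kinases, averaged 652 against 90.1 CPM, and Lbr, the lamin B receptor, 1550 against 416. Tubb5, a beta tubulin, averaged 3498 against 1288 CPM, and Tuba1c 621 against 242. Ptma, a general growth-related chromatin protein, did not separate the groups, at 384 against 389 CPM.

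Regulators of the G1 phase gave a mixed picture. Of 12 G1 cyclin, CDK, E2F and MuvB genes that passed the filter, 4 were 2-fold or more higher in the high-cycling cells (Ccnd2, Ccne2, E2f8 and Lin54) and 1 was lower (Ccnd1). These were 33.3% and 8.33%, beside 25% and 23.9% of all genes. In set C 5 were higher and 3 lower, beside 28.2% and 26.2% of all genes there. The summed level of the list had a log2 ratio of 0.80, and of 0.14 in set C. Without their highest cell Ccnd2 and Lin54 were under 2-fold, at log2 ratios of 0.33 and 0.32. Ccnd1, cyclin D1, averaged 35.9 CPM in the high-cycling and 150 CPM in the low-cycling cells, with a count in 5 and 7 cells. Ccnd2, another D-type cyclin, averaged 1042 against 494 CPM, but in set C its log2 ratio was -0.19, and 1 N523 cell at 4827 CPM set the mean. Ccne2, cyclin E2, averaged 44.4 against 6.15 CPM, and E2f8, a repressor of the E2F family, 134 against 24.7. Both stayed past 2-fold without their highest cell, with log2 ratios of 1.98 in place of 2.67 for Ccne2 (without cell 2) and 1.51 in place of 2.40 for E2f8 (without cell 22).

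Among 13 inhibitors of the cycle that passed the filter 2 were 2-fold or more higher in the high-cycling cells and 5 lower (15.4% and 38.5%, beside 25% and 23.9% of all genes), with a log2 ratio of the summed level of -0.63 and a pair share of 31%. The size of this ratio rested on few cells and genes. It was -0.31 without cell 7, -0.26 as a ratio of medians and 0.050 without Btg1, Btg2 and Cdkn1c, and in set C it was -0.58, with 3 genes past 2-fold in each direction. Only Cdkn2d and Gas1 remained past 2-fold without the highest cell of each gene, and Ccng1 then had a log2 ratio of 0.31, of the opposite sign. Cdkn2d, an inhibitor of CDK4 and CDK6, was 1 of the 2 higher ones, at 234 against 39.2 CPM and with a count in 10 and 4 cells. Tob1 was the other, at 63.2 against 18.0 CPM. Btg1 and Btg2, antiproliferative proteins that bind mRNA deadenylases, averaged 1158 against 2491 CPM and 599 against 1373 CPM, with pair shares of 36.5% and 39.5%. Gas1, Ccng1 and Meis1 were the remaining 3, and Meis1, a transcription factor of CM cell cycle exit, averaged 104 against 214 CPM. Cdkn1b and Cdkn1c, the p27 and p57 inhibitors, were found in nearly every cell of either group, at 195 against 115 CPM and 741 against 666 CPM. Cdkn1a, p21, stayed under 2 CPM on average in both.

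**Figure D4:**
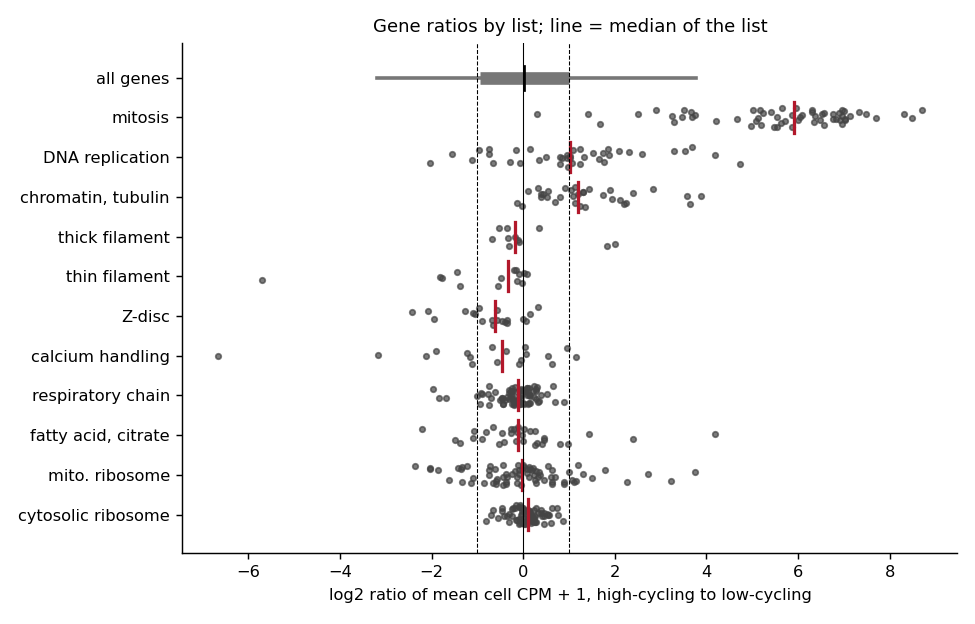
Log2 ratio of mean cell CPM plus 1, high-cycling to low-cycling cells, for each gene that passed the filter, by list, with the median of each list as a red line. The row of all 6027 genes shows its median (0.012), quartiles and 5th to 95th percentiles, and the dashed lines mark 2-fold. The median of the mitosis list lies at 5.91, and that of the Z-disc list at -0.62.

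Sarcomere transcripts were lower in the high-cycling cells. The summed level of 51 genes ran from 48694 to 89218 CPM with a median of 61345 in the high-cycling cells, from 56746 to 140330 CPM with a median of 82821 in the low-cycling cells, and from 41192 to 121521 CPM with a median of 76534 in the cells between. The log2 ratio was -0.46 and the pair share 14%. In set C the 2 groups did not overlap, with 48694 to 68229 CPM in the 6 high-cycling cells and 74342 to 93923 CPM in the 7 low-cycling cells (log2 ratio -0.54). Titles ending in "no" were 1 of these 6 and 5 of these 7 cells, and their part in this difference was not tested. In set N523 the 4 high-cycling cells ran from 57992 to 89218 CPM and the 2 low-cycling cells stood at 86270 and 140330 CPM. The single E12-5b cell, a low-cycling cell, had the lowest level of its group at 56746 CPM. Spearman's correlation with the score was -0.59 over the 29 cells and -0.74 over set C.

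This was a broad and small difference and not a set of large ones. Of 45 genes that passed the filter 37 had a ratio below 0, with a median of -0.39, beside a median of 0.012 over all 6027 genes. Of the 45, however, 11 (24.4%) were 2-fold or more lower in the high-cycling cells, close to the 23.9% of all genes, and 2 were 2-fold or more higher. In set C 16 of the 45 were 2-fold or more lower, where the background was 26.2%. Without the highest cell of each gene 5 of the 11 remained past 2-fold. CPM are shares of a total, and the high-cycling cells also had more of their counts in mitosis and chromatin genes, so less of a transcript and more of the others cannot be told apart here. With TMM factors every ratio moved by 0.233 on the log2 scale toward the high-cycling cells, and the sarcomere ratio became -0.22. The factors came from counts summed over each group, where the deep N523 cells weigh most. They were applied to ratios of mean cell CPM, where every cell weighs the same.

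By position in the sarcomere, the Z-disc stood lowest in mean cell CPM. Z-disc genes had a log2 ratio of -0.70 with a pair share of 11%, thin filament genes -0.45 with 21%, and thick filament genes -0.36 with 23%. In set C the log2 ratios were -0.76, -0.65 and -0.28. In pooled CPM the order turned, with -0.53, -0.32 and -0.76. Of 20 Z-disc genes that passed the filter 6 were 2-fold or more lower in the high-cycling cells, of 14 thin filament genes 5, and of 11 thick filament genes none, beside 23.9% of all genes. In set C the counts were 9, 6 and 1, beside 26.2% of all genes. Without the highest cell of each gene 2 of the 6 Z-disc genes and 3 of the 5 thin filament genes remained past 2-fold, so these counts give no order of the parts. Mylk3, the kinase of the myosin light chain and a thick filament list gene, had a log2 ratio of 2.01, but without cell 29, at 454 CPM, the ratio was 0.93.

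Among the Z-disc genes, Ankrd1, a stretch-responsive protein bound to titin, ran from 16.3 to 8559 CPM with a median of 1268 in the high-cycling cells and from 643 to 10881 with a median of 4489 in the low-cycling cells. Nebl, the nebulin-like anchor of thin filaments, averaged 36.6 against 202 CPM and was found in 5 and 10 cells. Flnc, filamin C, averaged 35.5 against 154 CPM, and Ldb3, which binds alpha actinin, 269 against 561. The groups overlapped at each of these genes. For Ldb3 the pooled CPM gave a ratio of 0.21, of the opposite sign, and for Pdlim3, another Z-disc protein (67.5 against 263 CPM), 0.97. Without their highest cell Ankrd1, Ldb3 and Pdlim3 were under 2-fold, at log2 ratios of -0.86, -0.76 and -0.83, while Nebl and Flnc stayed past it.

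Of 14 thin filament genes, 3 (Acta1, Acta2 and Lmod2) remained past 2-fold without the highest cell of each gene. Acta1 and Acta2, the skeletal and smooth muscle actins that the embryonic heart uses beside its own, averaged 12.6 against 706 CPM and 904 against 2479 CPM. Acta1 was found in 4 high-cycling cells, at no more than 79.1 CPM, and in 7 low-cycling cells, up to 3728 CPM in cell 5, without which their mean was 371 CPM. Actc1, the cardiac actin, averaged 13326 CPM in the high-cycling and 19502 CPM in the low-cycling cells, with a log2 ratio of -0.55. The cardiac troponins were close to level, with Tnnt2 at 2472 against 2828 CPM, Tnni3 at 1388 against 1303 and Tnnc1 at 2493 against 2764. Tnnt1 and Tnni2, troponins named for skeletal muscle, had log2 ratios of -1.38 and -1.77, but without 1 low-cycling cell each (cells 27 and 4) these were -0.92 and -0.14. Lmod2, which lengthens thin filaments, averaged 28.0 against 101 CPM.

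Thick filament genes differed least in mean cell CPM. Myh6 averaged 1477 against 1833 CPM, Myh7 1324 against 2121, Ttn, the titin spring, 5239 against 6747 and Mybpc3 702 against 747. The light chains Myl2 and Myl3 of ventricular muscle averaged 2067 against 2230 CPM and 2970 against 3360 CPM. Myl7, the light chain of atrial muscle, averaged 6648 against 9583 CPM, with the value of 34330 CPM in 1 low-cycling cell in that mean.

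**Figure D5:**
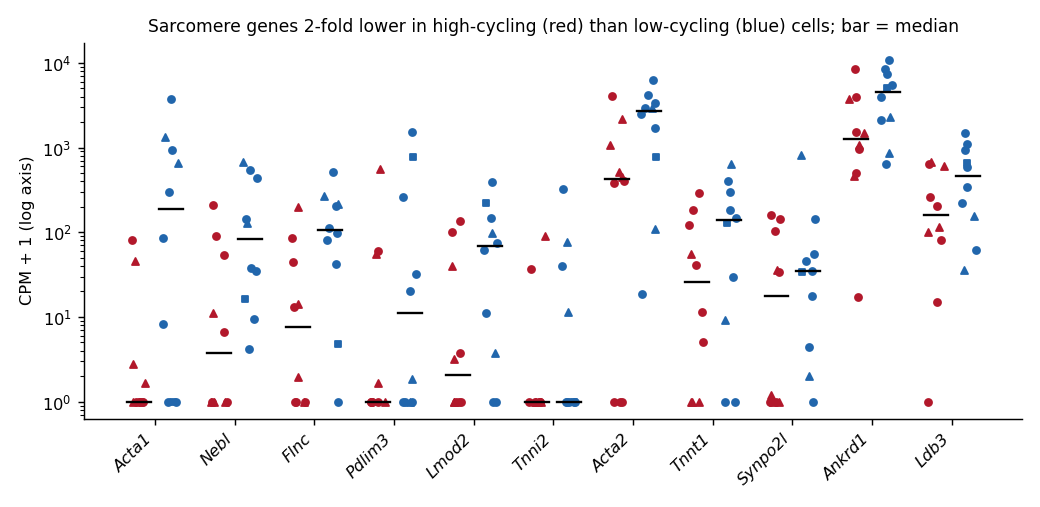
CPM plus 1 (log axis) of the 11 sarcomere genes with a mean 2-fold or more lower in the high-cycling cells, in each high-cycling (red) and low-cycling (blue) cell, ordered by ratio, with symbols for the naming set (circle C, triangle N523, square E12-5b) and bars for the medians. The cells of the groups overlap at every gene shown.

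Of 18 genes of calcium handling that passed the filter 7 were 2-fold or more lower in the high-cycling cells, beside 23.9% of all genes, and 1 was higher, beside 25%, with a log2 ratio of -0.35 and a pair share of 40% (-0.57 and 23.8% in set C, with 10 lower, beside 26.2% of all genes there, and 1 higher). Without the highest cell of each gene 3 of the 7 and not the 1 remained past 2-fold. Trdn, triadin, which ties the calcium store to its release channel, ran from 0 to 296 CPM with a median of 90.6 in the high-cycling and from 34.8 to 1034 with a median of 454 in the low-cycling cells. Cacna1d, a calcium channel, averaged 0.27 against 129 CPM (log2 ratio -6.67, and -5.90 without cell 5). The release channel Ryr2 (300 against 288 CPM), the pump Atp2a2 (1103 against 1168) and its inhibitor Pln (1004 against 1035) were level. Tagln, an actin-binding protein of smooth muscle that embryonic CMs also make, averaged 206 against 798 CPM, but its pooled ratio was 0.51.

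Nuclear genes of the respiratory chain differed little. The summed level of 82 genes ran from 32725 to 81171 CPM (median 47443) in the high-cycling and from 25696 to 76265 CPM (median 57274) in the low-cycling cells, with a log2 ratio of -0.12 and a pair share of 42%. In set C the ratio was -0.31, and with TMM factors over all 20 cells it was 0.11, so no direction is given. Of 80 genes that passed the filter 4 were 2-fold or more lower in the high-cycling cells and none higher, fewer than the background in either direction. A ratio below 0 was found for 52 of the 80, with a median of -0.12, beside 0.012 over all 6027 genes. By complex the log2 ratios were -0.17 for complex I, -0.30 for II, -0.22 for III, -0.065 for IV and -0.046 for V. The 4 lower genes included Ndufb4 and Ndufs1 of complex I and Sdhc of complex II. Ndufb4 averaged 41.1 against 165 CPM with a pair share of 19%. Sdhc had a log2 ratio of -0.10 without cell 7.

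The enzymes of fatty acid oxidation and the citrate cycle, 32 of which passed the filter, gave 3 genes 2-fold or more higher in the high-cycling cells (9.38%, beside 25% of all genes) and 5 lower (15.6%, beside 23.9%), with a log2 ratio of -0.12 (-0.52 in set C, 0.20 in pooled CPM). Hadh and Hadhb, which act in the beta-oxidation spiral, averaged 122 against 348 CPM and 111 against 238 CPM, with pair shares of 24.5% and 23%. Etfdh, which passes their electrons to the respiratory chain, averaged 217 against 458 CPM (114 against 458 without cell 28). Acadvl, Cpt2 and Ogdh were the 3 higher ones, and Acadvl, the dehydrogenase of very long chains, averaged 97.7 against 4.39 CPM with a median of 2.77 in the high-cycling cells and a mean of 48.6 CPM there without cell 3. Without their highest cell Hadhb, Cpt2 and Ogdh were under 2-fold, at log2 ratios of -0.76, -0.12 and 0.68. Glycolysis genes were level at a log2 ratio of -0.0018 (0.23 with TMM factors, 0.054 in set C), with Hk2, a hexokinase, at 577 against 276 CPM (a log2 ratio of 0.61 without cell 6) and Pfkm, the muscle phosphofructokinase, at 24.3 against 112. Ribosomal proteins of mitochondria had 12 genes past 2-fold in each direction of 74 (5 in each without the highest cell of the gene), and those of the cytosol none of 77.

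Of the 15 genes with the largest ratios higher in the low-cycling cells, Pdk4 came first. Pdk4, a kinase that inhibits pyruvate dehydrogenase and so keeps pyruvate from becoming acetyl-CoA, had no count in any of the 10 high-cycling cells and a count in 7 low-cycling cells, up to 619 CPM. Its pooled level was at least 404-fold higher in the low-cycling cells, with 3 counts over the group as the limit. The highest cell, cell 15, is part of that level. Its mean over the low-cycling cells was 153 CPM, and 101 CPM without cell 15. Decr1, an enzyme that lets beta-oxidation use unsaturated fatty acids, averaged 0.0857 against 90.7 CPM with a count in 2 and 7 cells. The rest of these genes were Slc37a4, which carries glucose 6-phosphate into the endoplasmic reticulum, Akr1b10, 1600002H07Rik, Gnpda1, Acta1, Med16, Tspyl5, Ptplb, Slc35d2, Cpd, Slu7, F11r and Brd7. Cpd, a carboxypeptidase, averaged 5.14 against 222 CPM. Each of the 15 had a count in at most 9 low-cycling cells, of which the rule asked for 6, and in 0 to 6 high-cycling cells. Vcam1, an adhesion molecule of embryonic myocardium, had the lowest pair share of all genes tested, 10%, at 9.01 against 116 CPM, and was found in 4 high-cycling and 10 low-cycling cells. It was singled out after its values were seen.

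Markers of the chambers were found in both groups. Myl2, which marks ventricular CMs, had a count in 8 high-cycling cells and 7 low-cycling cells, and Sln, which marks atrial CMs, in 2 and 3. Nppa, the atrial natriuretic peptide of trabecular and atrial CMs, averaged 3145 against 21.9 CPM and was found in 7 and 4 cells. Its mean rested on 3 high-cycling cells at 1000 CPM or more, with a mean of 1052 CPM without cell 29, and none of the 3 was in set C, where the trabecular list had a log2 ratio of -0.33 against 2.90 over all cells. Nppb, the related peptide, went the other way, at 4.36 against 198 CPM. The compact layer list, with a ratio of -0.44 (0.083 in set C), gave no steady direction either. The atrial list, led by Myl7, Nppa and Myl4, had a ratio of -0.11, and of -0.54 in set C with a pair share of 26.2% there. Without the cell with the highest level (cell 25) the ratio was 0.36.

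The E9.5 cells, ranked in the same way, gave a different set of values. Their 10 highest (2 of set C and 8 of set N530) and 10 lowest cells (6 of C and 4 of N530) had a log2 ratio of 2.58 for the mitosis list, 0.11 for replication, -0.12 for chromatin and tubulin, 0.038 for the respiratory chain and 0.56 for the sarcomere. Sarcomere levels ran from 59297 to 150328 CPM in the E9.5 high-cycling cells and from 377 to 198667 CPM in the E9.5 low-cycling cells, so the low group there included cells with almost no sarcomere transcript. No E12.5 cell was of that kind, with the lowest at 41192 CPM. The cycle inhibitors had a ratio of -0.98 in the E9.5 cells. With 1 sample an age, the difference between the ages was not tested.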

How the data were processed

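Raw read counts per gene symbol were deposited by the authors as 1 table of 123 cells, made by OLego mapping and featureCounts (GRCm38, per the labels), and were used as deposited. The authors also deposited TPM (linear), used here as an alternative only. CPM of the 29 E12.5 cells are counts over each cell's sum, times 1000000. The members and lists were chosen with earlier results of these data known. Cells were ranked by the summed CPM of 10 genes and groups of 10 were compared by mean cell CPM (pseudocount 1 CPM), without a test. Named genes were the 15 with the largest ratio in each direction among those with a mean of 50 CPM or more in the higher group, a count in 6 of its cells, a higher median there and the same direction in set C and pooled CPM, and the score genes. In each list those with the most counts or past 2-fold, and markers at 0, were named too. A count of 0 was read as up to 3 counts. Reads carry no molecular identifiers, so limits cover counting error only. Total counts ranged from 148258 to 7711355. No doublet caller was run on 29 cells. 25 of 23337 symbols read as dates and could not be named. Alternatives were other levels, units, depths, rankings, group sizes and filters, and TMM factors (edgeR 4.0.16, R 4.3.3). Scripts were tested on simulated data (Python 3.11.15). Promoters are from RefSeq, GRCm38.p6. Some genes are not reported here.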

Additional observations from a re-analysis of the deposited data

Results flagged for a closer look

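In 52 groups of 10 cells (26 list levels in each group) a cell was looked for that stood apart from the other 9 by more of the whole range than Dixon's 95% critical value. There were 10. Chance flags about 1 in 20 separate groups of normally distributed values, but these lists share genes and cells and CPM of single cells are skewed, so the 10 are not set against that share. Cell 25, a low-cycling cell of set N523, stood apart with 140330 CPM of sarcomere genes (next cell 93923), 57778 CPM of thick filament genes and 49972 CPM of atrial genes (next cell 22016). Cell 28, a high-cycling cell of N523, stood apart with 10299 CPM of stress and immediate early genes, where the median of its group was 663, and with 6304 CPM of G1 cyclins and CDKs. Cell 29, a high-cycling cell of N523, had 25065 CPM of trabecular genes (median 431) and 2448 CPM of smooth muscle genes (median 240). In set C, the low-cycling cell 7 had 15701 CPM of cycle inhibitors (next cell 7983), the low-cycling cell 9 had 4228 CPM of cardiac transcription factors, and the high-cycling cell 6 had 2548 CPM of compact layer genes.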

How the results depend on the processing

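Of 422 alternative values (each gene without its highest cell not counted) 409 counted as the same, 7 moved by more and 6 reversed. The same meant a move within the spread between cells, or within a fixed fold for counts of genes, whatever the sign. Reversal was counted only for lists whose main ratio was 2-fold or more. In lists nearer to level the sign often changed. The ventricular and cardiac transcription factor lists kept theirs in 7 of 15 alternatives each, and the glycolysis list in 8 of 15. No paired analysis was run, since no test was made and the cells carry no shared replicate number. Sets C and N523 occur in both groups but were not used as blocks. The mitosis ratio stayed between 3.30 and 4.97, the sarcomere ratio between -0.66 and -0.22 and the Z-disc ratio between -0.86 and -0.46. In pooled CPM, replication reversed to -0.064, smooth muscle genes to 0.057 (from -1.46), chromatin and tubulin moved to 0.28 and thick filament genes to -0.76. The trabecular list, 2.90 over all cells, was 0.072 as a median over cells, -0.33 in set C, -0.49 with set C ranked on its own, -1.14 with a score of Mki67, Top2a and Cenpf and -1.14 without its 3 leading genes. The respiratory chain ran from -0.31 to 0.11 and fatty acid and citrate genes from -0.56 to 0.20. Without a filter on low values 3221 genes were past 2-fold higher in the high-cycling and 3402 in the low-cycling cells, with a mean of 50 CPM or more 735 and 651, and with each gene read without its highest cell, chosen after seeing the data, 1425 and 1331. Of the genes past 2-fold 51.1% were higher in the high-cycling cells, 59.5% with TMM factors and 59.9% without titles ending in "no". The cause was not tested.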

Other observations

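Genes of the nucleolus, where ribosomes are made, had a log2 ratio of 0.37 and a pair share of 69% (0.76 and 83.3% in set C, -0.29 in pooled CPM, 0.050 without titles ending in "no"). Of 11 that passed the filter 5 were 2-fold or more higher in the high-cycling cells and 1 lower (45.5% and 9.09%, beside 25% and 23.9% of all genes). Of these, 3 and none remained past 2-fold without the highest cell of each gene. Nop56, a core protein of small nucleolar RNPs, averaged 74.6 against 4.62 CPM (41.9 without cell 16), and Nop16 103 against 4.95. Of 17 growth and progenitor genes that passed, none was 2-fold higher in the high-cycling cells and 5 were lower, near the 23.9% of all genes. In set C 4 were higher and 7 lower, beside 28.2% and 26.2% of all genes there. The log2 ratio of the summed level was -0.21 (-0.026 in set C). The 5 were Axl, Ctgf (log2 ratio -2.49, and -1.75 without cell 9), Erbb4, the neuregulin receptor (12.3 against 45.2 CPM), Igf2bp2 and Yap1, the effector of Hippo signalling (46.8 against 119 CPM). Without their highest cell only Ctgf and Igf2bp2 remained past 2-fold, and Axl, Erbb4 and Yap1 had log2 ratios of 0.070, -0.032 and -0.67. Of 14 cardiac transcription factors 3 were lower, Gata4 (29.9 against 113 CPM), Tbx3 and Zfpm2, and none was higher, a share not above the 23.9% of all genes, while the summed level of that list was near level at -0.11 (0.15 in set C). In set C 3 were higher and 2 lower, beside the same 28.2% and 26.2%. Without their highest cell Tbx3 and Zfpm2 had log2 ratios of -0.35 and -0.37, with only Gata4 still past 2-fold at -1.16.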
